A study of Homo sapiens with 6 samples.

Results

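The cytosolic ribosomal protein genes were examined in T98G cells, a human glioblastoma line, by polyA-selected RNA-seq. Genes were taken by symbol (RPL and RPS followed by a number, RPLP0 to RPLP2, RPSA, RPS27A, FAU, and the paralogs written with an L or an A) and kept where the mean over the 6 libraries was at least 10 CPM (counts per 1000000 counts of the library). Of 83 matching symbols among 57133 in the table, 77 met this limit, and all 77 also passed the filter on low counts that left 14461 genes to test. All 6 libraries came from a T98G line whose endogenous CBX8 was knocked out with a CRISPR guide and which received doxycycline at 1 µg/ml for 72 h. The 3 CBX8 KO libraries carried the empty inducible lentiviral vector, per the study's methods, and the 3 WT CBX8 re-expression libraries carried V5-tagged wild-type CBX8 in the same vector, so the cells were virally transduced, drug-selected lines and the expression level of the transgene was set by the vector. The comparison asks which transcripts change when CBX8, a chromodomain subunit of Polycomb repressive complex 1, is returned to cells that lack it. Whether the replicates were separate cultures is not given in the sources used here, and p-values then measure only the spread between these libraries.

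A ribosome has a small (40S) subunit, which reads the mRNA, and a large (60S) subunit, which joins amino acids, and each ribosomal protein is normally present once per particle. Cells therefore make the proteins in matched amounts. Most of their mRNAs begin with a terminal oligopyrimidine (TOP) tract, a C followed by further pyrimidines, through which mTOR signalling and the protein LARP1 control their translation, while MYC is a well-known activator of genes for ribosome production.

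The start sequences of 10 of these genes are shown, all with a TOP tract, a feature common in the family. The first 6 were called lower upon WT CBX8 re-expression and the last 4 were not called. The called genes RPL6, RPS29, RPS27L, RPL17 and RPS4X had no tract by the rule given below and are not shown. Each runs 5′ to 3′ on the gene's strand over 30 bases of GRCh38.p14 from RefSeq, with the first 10 bases upstream of the annotated start and the pyrimidine tract in capitals.
RPL14, chr3:40457329-40457358, plus strand: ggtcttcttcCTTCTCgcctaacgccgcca
RPL38, chr17:74203668-74203697, plus strand: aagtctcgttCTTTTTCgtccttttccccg
RPS10, chr6:34426050-34426079, minus strand: catgctccttCCTTTCCagccccggtaccg
RPL26, chr17:8383174-8383203, minus strand: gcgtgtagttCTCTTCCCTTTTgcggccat
RPL12, chr9:127451387-127451416, minus strand: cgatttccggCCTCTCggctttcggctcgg
RPL10A, chr6:35468391-35468420, plus strand: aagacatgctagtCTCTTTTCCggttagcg
RPLP0, chr12:120201092-120201121, minus strand: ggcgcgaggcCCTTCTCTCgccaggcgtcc
RPL35, chr9:124861938-124861967, minus strand: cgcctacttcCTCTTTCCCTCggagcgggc
RPS21, chr20:62387093-62387122, plus strand: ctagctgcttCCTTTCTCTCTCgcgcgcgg
RPLP2, chr11:809957-809986, plus strand: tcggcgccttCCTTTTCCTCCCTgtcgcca

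RefSeq start sequences were matched for 63 of the 77 genes. A tract of at least 5 pyrimidines opening with C within 5 bases of the annotated start was found in 52 of these 63 (82.5%), against 25.2% of 27305 genes with a promoter sequence. It was found in 9 of the 14 matched genes that were called lower (64.3%) and in 43 of the 49 that were not (87.8%). The tract was thus common on both sides of the call. In the window from 250 bases before to 50 bases after the start, the ETS-type motif CTTCCGG, searched on both strands, was present in 36.5% of the matched genes and in 12.2% of all promoters. The TATA box letters TATAAA were present in 7.94% and 14%, respectively.

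The knocked-out gene was checked first. CBX8 was counted 96, 104 and 83 times in CBX8 KO and 30372, 31408 and 27791 times upon re-expression, in the direction of the labels. Library totals ran from 7950190 to 8659796 counts. Of 10 markers of other cell types, 1 (SNAP25) reached 1 CPM in each library, and the summed level of the list was 8.54 to 9.56 CPM in CBX8 KO and 11.1 to 14.6 CPM upon re-expression; PTPRC, CD3E, EPCAM, CDH1, KRT5, ALB, PECAM1 and RBFOX3 were each below 1 CPM. Among 10 markers expected in a glioblastoma line, VIM, CD44 and SPARC were at 1979 CPM or more in every library. CD44 was called lower by edgeR (log2 fold change -0.21), and FN1 (0.22) and TNC (1.39, from 63.4 to 166.5 TMM-scaled CPM) were called higher. Others on the list were low: SOX2 was listed at 0 in all 6 libraries and NES stayed below 1 CPM. CHI3L1, GFAP and OLIG2 ran from 0.126 to 1.22, from 1.64 to 3.46 and from 1.64 to 4.39 CPM, respectively.

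Ribosomal protein transcripts were slightly lower upon WT CBX8 re-expression. Of the 77 genes, 22 (28.6%) were called lower and 0 were called higher by edgeR's quasi-likelihood test at a false discovery rate of 0.05. Over all 14461 genes tested, 6.63% were called lower and 6.23% higher. At an unadjusted p under 0.05 the numbers were 46 lower and 0 higher, against 12.7% lower and 12.7% higher over all genes tested, and DESeq2 and limma voom also called 0 higher. The median log2 fold change of the family was -0.13 (a change of -8.33%), with quartiles of -0.16 and -0.09, and the median over all genes tested was 0.00. The sign was negative for 73 of the 77 genes (94.8%), against 48.8% of all genes tested. The sizes were small throughout, from -0.24 for RPL36A to 0.07 for RPLP2, with a median standard error (SE) of 0.05, and 0 members were called when a fold change of at least 1.2 was also asked for. With that limit 3.76% of all genes tested were called lower and 4.76% higher. The groups separated without overlap, re-expression below CBX8 KO, for 35 of the 77 genes (45.5%), against 14.4% of all genes tested, and with re-expression on top for 0. The members were also expressed at a higher level, with a median log2 CPM of 8.87 against 4.56 over all genes tested. The part of this difference in level in the shares called lower or separated was not tested.

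**Figure D1:**
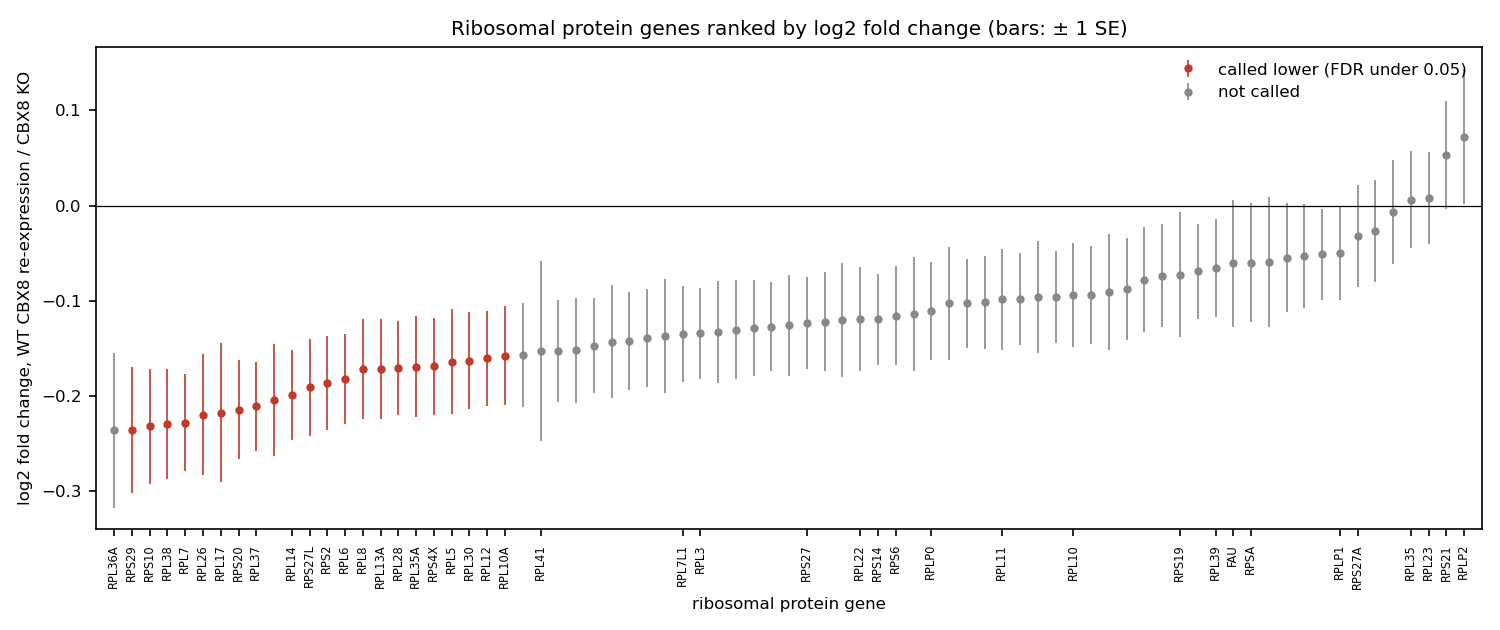
The log2 fold change (y axis, WT CBX8 re-expression over CBX8 KO) of each of the 77 ribosomal protein genes (x axis, ranked; names given for some), with bars of 1 SE and the 22 called genes in red. The points form one narrow slope from -0.24 to 0.07, and 4 genes, RPL35, RPL23, RPS21 and RPLP2, sit above 0.

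The scaling between libraries bears on these counts. With the trimmed mean of M values (TMM) the factors were 0.971 to 0.987 in CBX8 KO and 1.01 to 1.03 upon re-expression, and without such factors (library size alone) 5 genes were called lower and the family's median was -0.07. That scaling called 4.09% of all genes tested lower and 9.68% higher, so the share of members called lower was then near the share over all genes. Library size alone also moved the median of all genes tested, to 0.06, so the family lay 0.13 below that median under both scalings. The 5 genes were RPL14, RPL37, RPL38, RPL7 and RPS20.

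**Figure D2:**
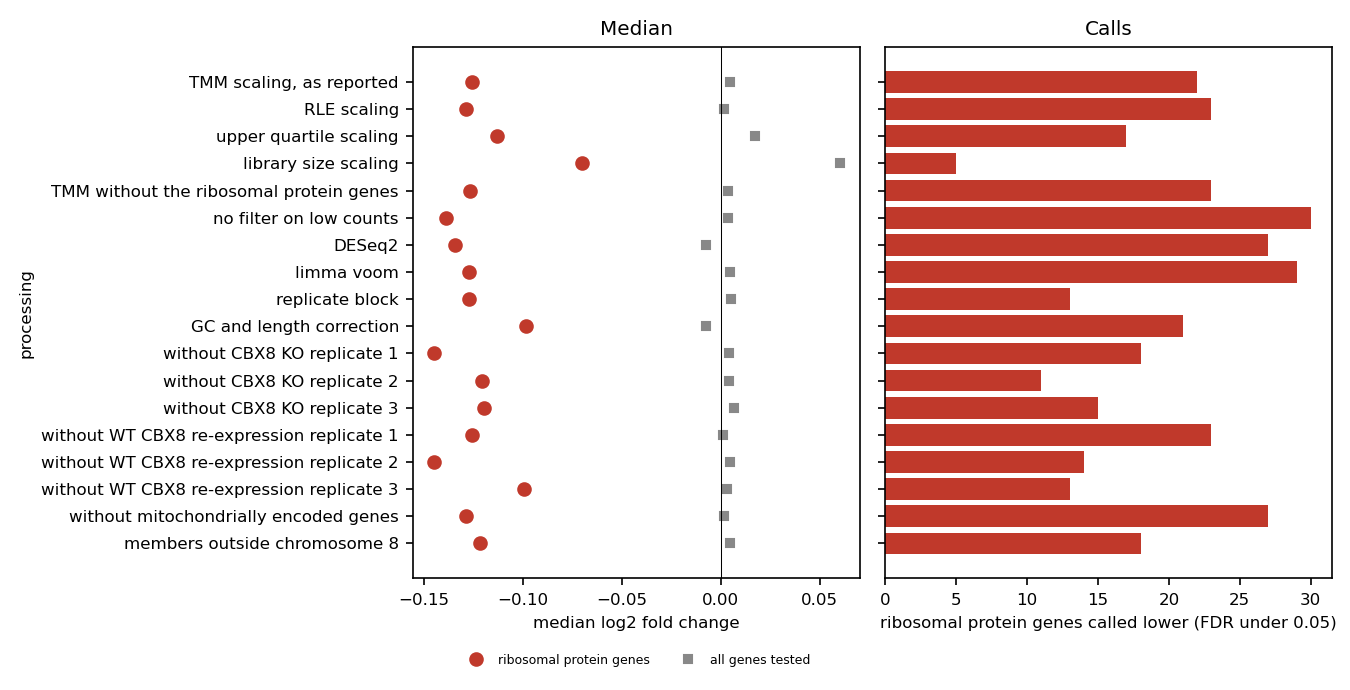
Left, the median log2 fold change (x axis) of the ribosomal protein genes (red circles) and of all genes tested (grey squares) under each processing (y axis). Right, the number of ribosomal protein genes called lower at a false discovery rate of 0.05, from 5 under library size scaling to 30 with no filter.

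As a share of all counts, the 77 genes took 3.90%, 4.06% and 4.08% in the CBX8 KO libraries and 3.90%, 3.91% and 3.70% in the re-expression libraries, and the groups overlapped. The means were 4.01% ± 0.10 and 3.84% ± 0.12 (SD, n = 3), a difference of -0.18 percentage points, which was -0.11 without re-expression replicate 3 and -0.23 without CBX8 KO replicate 1. Mitochondrially encoded transcripts took 7.96%, 6.85% and 7.15% of counts in CBX8 KO and 5.96%, 6.43% and 6.99% upon re-expression. With those transcripts and CBX8 left out of the total, the shares were 4.23%, 4.36% and 4.40% against 4.17%, 4.19% and 3.99%, and the groups no longer overlapped. The part of the mitochondrial transcripts in the result was not tested beyond a fit without them, which called 27 genes lower. That fit called 6.87% of all genes tested lower. These are shares of polyA RNA, and the amount of RNA per cell was not measured, so fewer transcripts per cell and a shift in the other transcripts cannot be told apart.

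After TMM scaling the family's median was lower in each re-expression library than in each CBX8 KO library, but not evenly. The median deviation of the family from each gene's own mean was 0.04, 0.07 and 0.10 on the log2 scale in CBX8 KO replicates 1 to 3, and -0.04, -0.03 and -0.11 in the re-expression replicates. Replicate 3 of the re-expression group held the lowest value for 47 of the 77 genes, and replicate 3 of CBX8 KO held the highest for 37. Without that re-expression library 13 genes were called lower and the median was -0.10. Without CBX8 KO replicate 2 the number was 11, and without re-expression replicate 2 it was 14. Over all genes tested, these 3 fits called 5.71%, 4.61% and 4.33% lower, respectively.

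**Figure D3:**
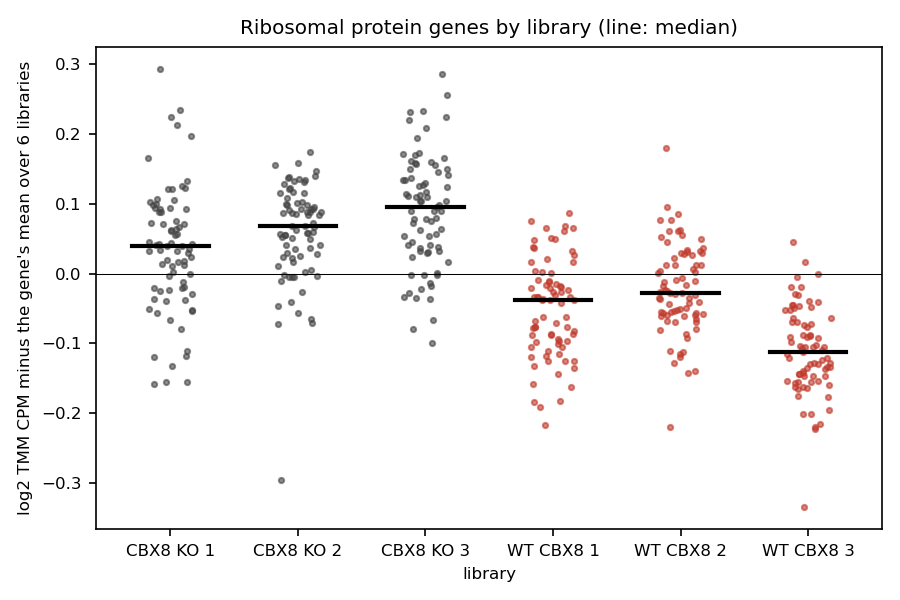
Each point is 1 of the 77 ribosomal protein genes, plotted as its log2 TMM-scaled CPM minus its mean over the 6 libraries (y axis) for each library (x axis), with the median as a black line. The medians are 0.04 to 0.10 in the CBX8 KO libraries and -0.11 to -0.03 in the re-expression libraries, and the clouds overlap.

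RPL7, RPS20, RPL37 and RPL14 were the 4 genes called lower in each of 16 refits at the same false discovery rate (other scalings, tools, filters or libraries left out). RPL37, a large-subunit protein, had the smallest adjusted p of the family. Its levels were 685.2, 698.4 and 696.7 TMM-scaled CPM in CBX8 KO and 583.6, 609.5 and 604.8 upon re-expression. Its groups did not overlap (log2 fold change -0.21 ± 0.05 SE, edgeR adjusted p = 0.0027). RPL14, another large-subunit protein, had 379.1, 393.2 and 388.2 CPM against 338.2, 344.3 and 328.7, again without overlap (-0.20 ± 0.05, edgeR adjusted p = 0.0047). RPL7, a large-subunit protein, was at 613.1, 609.3 and 639.1 CPM in CBX8 KO and at 493.2, 547.9 and 548.5 upon re-expression (-0.23 ± 0.05, edgeR adjusted p = 0.0029). RPS20, a small-subunit protein, was at 565.6, 592.6 and 594.6 CPM and then at 484.0, 542.8 and 484.1 (-0.21 ± 0.05, edgeR adjusted p = 0.0056). In both genes every re-expression library was below every CBX8 KO library.

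The largest log2 decreases among the called genes, beside that of RPL7, belonged to members with lower counts. RPS29, a small-subunit zinc-binding protein, had 101.6, 96.8 and 118.3 CPM in CBX8 KO and 94.7, 89.6 and 84.4 upon re-expression (-0.24 ± 0.07, edgeR adjusted p = 0.017). It was called in 11 of 16 refits, and stood at -0.15 without CBX8 KO replicate 3 (edgeR adjusted p = 0.14). RPS10, a small-subunit protein mutated in some patients with Diamond-Blackfan anaemia, had 83.2, 82.6 and 87.8 CPM against 75.7, 66.9 and 73.3 (-0.23 ± 0.06, edgeR adjusted p = 0.01). RPL38, a large-subunit protein known for its role in mouse axial patterning, had 180.0, 173.2 and 151.7 CPM against 141.4, 147.9 and 141.4 (-0.23 ± 0.06, edgeR adjusted p = 0.0075). The 3 genes showed no overlap between groups, but the CBX8 KO values of RPS29 and RPL38 differed among themselves by more than the distance between the nearest libraries of the 2 groups.
RPL26 and RPL17, both large-subunit proteins, were called although their groups overlapped. RPL26 was at 160.0, 139.6 and 174.4 CPM in CBX8 KO and 143.4, 132.3 and 131.1 upon re-expression. RPL17 was at 72.3, 58.5 and 68.7 CPM and then at 54.2, 60.0 and 57.1. RPL26 stood at -0.14 without CBX8 KO replicate 3 (edgeR adjusted p = 0.15). RPL17 kept its call in 5 of the 16 refits, the fewest of the 22 genes, and has near-identical copies elsewhere in the genome.

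The called genes nearest to 0 were RPL35A, RPS4X, RPL5, RPL30, RPL12 and RPL10A, with log2 fold changes from -0.17 to -0.16. Their calls were held in 11, 11, 8, 7, 9 and 8 of the 16 refits, respectively, and of the 6 only RPL35A was called with the replicate block. RPS4X, the X-linked small-subunit gene, fell from 1190, 1198 and 1095 CPM to 998.3, 1054 and 1047. RPL12, a protein at the base of the large-subunit stalk, fell from 551.8, 608.7 and 551.9 CPM to 509.6, 521.2 and 501.8. In both genes the groups were apart, as they were in 19 of the 22 called genes.

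Further called genes lay between these. RPL6, a large-subunit protein, was at 795.5, 773.8 and 761.7 CPM in CBX8 KO and at 691.6, 671.5 and 691.6 upon re-expression (-0.18 ± 0.05, edgeR adjusted p = 0.0095). RPL8, which lies close to the peptidyl transferase centre, was at 784.4, 852.7 and 882.6 CPM against 777.9, 744.7 and 714.5 (-0.17 ± 0.05, edgeR adjusted p = 0.029). Both genes showed no overlap, and in RPL8 the nearest libraries of the groups were less than 10 CPM apart. RPL28 was at 560.1, 526.2 and 571.2 CPM against 495.4, 472.3 and 504.5, and its groups were apart as well (-0.17 ± 0.05, edgeR adjusted p = 0.02).

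RPL36A had the lowest log2 fold change of the family and was not called. It was at 63.5, 49.3 and 56.6 CPM in CBX8 KO and 45.4, 51.4 and 46.8 upon re-expression, with overlapping groups (-0.24 ± 0.08, edgeR adjusted p = 0.055), and 3 of 16 refits called it lower. RPL41, which encodes the smallest ribosomal protein, was at 56.7, 48.4 and 49.5 CPM against 45.4, 54.9 and 38.5 (-0.15 ± 0.09, edgeR adjusted p = 0.33). These were the members with the fewest counts. RPL3, a large-subunit protein needed early in assembly, was at 726.9, 768.0 and 764.4 CPM against 676.1, 706.2 and 676.3 without overlap (-0.13 ± 0.05, edgeR adjusted p = 0.066), and 6 of 16 refits called it.

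By subunit, 6 of 30 small-subunit genes and 16 of 47 large-subunit genes were called lower, with medians of -0.12 and -0.13. The spread within each subunit was wider than this distance, and the subunits were not tested against each other.

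RPL5 and RPL11 form the 5S ribonucleoprotein, which can bind and inhibit MDM2 and thereby raise p53. RPL5 was at 999.7, 914.3 and 859.1 CPM in CBX8 KO and at 799.6, 806.6 and 869.4 upon re-expression (-0.16 ± 0.05, edgeR adjusted p = 0.049), with 1 re-expression library inside the CBX8 KO range. It was called in 8 of 16 refits and stood at -0.11 without CBX8 KO replicate 1 (edgeR adjusted p = 0.26). RPL11 was at 606.2, 626.6 and 619.8 CPM against 561.6, 628.7 and 540.1 (-0.10 ± 0.05, edgeR adjusted p = 0.25). One re-expression value of RPL11 was the highest of all 6 libraries.

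The P stalk, built of RPLP0 with RPLP1 and RPLP2, recruits the elongation factors. None of the 3 was called. RPLP0 was at 1341, 1445 and 1457 CPM against 1297, 1371 and 1260 (-0.11 ± 0.05, edgeR adjusted p = 0.17). RPLP2, the highest log2 fold change of the family, was at 596.9, 487.7 and 675.0 CPM against 626.4, 624.8 and 598.1 (0.07 ± 0.07, edgeR adjusted p = 0.58). Its 3 re-expression values lay inside the range of the CBX8 KO libraries, whose replicate 2 was low.

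At the rim of the exit tunnel, where the new chain leaves the large subunit, 3 of 9 genes were called lower (RPL17, RPL26 and RPL38), with a median of -0.10. In the whole family 28.6% were called lower, with a median of -0.13, and over all genes tested 6.63%. The calls of RPL17, RPL26 and RPL38 held in 5, 10 and 14 of the 16 refits. Around the path of the mRNA on the small subunit 1 of 6 was called, RPS2, at 1687, 1747 and 1813 CPM in CBX8 KO and 1533, 1562 and 1516 upon re-expression (-0.19 ± 0.05, edgeR adjusted p = 0.011). RPSA, the laminin receptor homologue in that group, was at 700.5, 780.0 and 878.3 CPM against 788.1, 769.7 and 704.4, and these overlapped. RPS27A and FAU, which are made as fusions to ubiquitin and a ubiquitin-like protein, had log2 fold changes of -0.03 and -0.06 and were not called. RPS6, the substrate of the S6 kinases, RPS19 and RPS14, both linked to inherited or acquired anaemia, and RPL10 ranged from -0.12 to -0.07 and were not called by edgeR, although DESeq2 and limma voom called RPS14 lower and edgeR called RPS6 lower without re-expression replicate 1. RPL13A, often used as a reference gene in qPCR, fell from 800.1, 809.6 and 878.9 CPM to 767.1, 752.3 and 690.5 (-0.17 ± 0.05, edgeR adjusted p = 0.03).

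**Figure D4:**
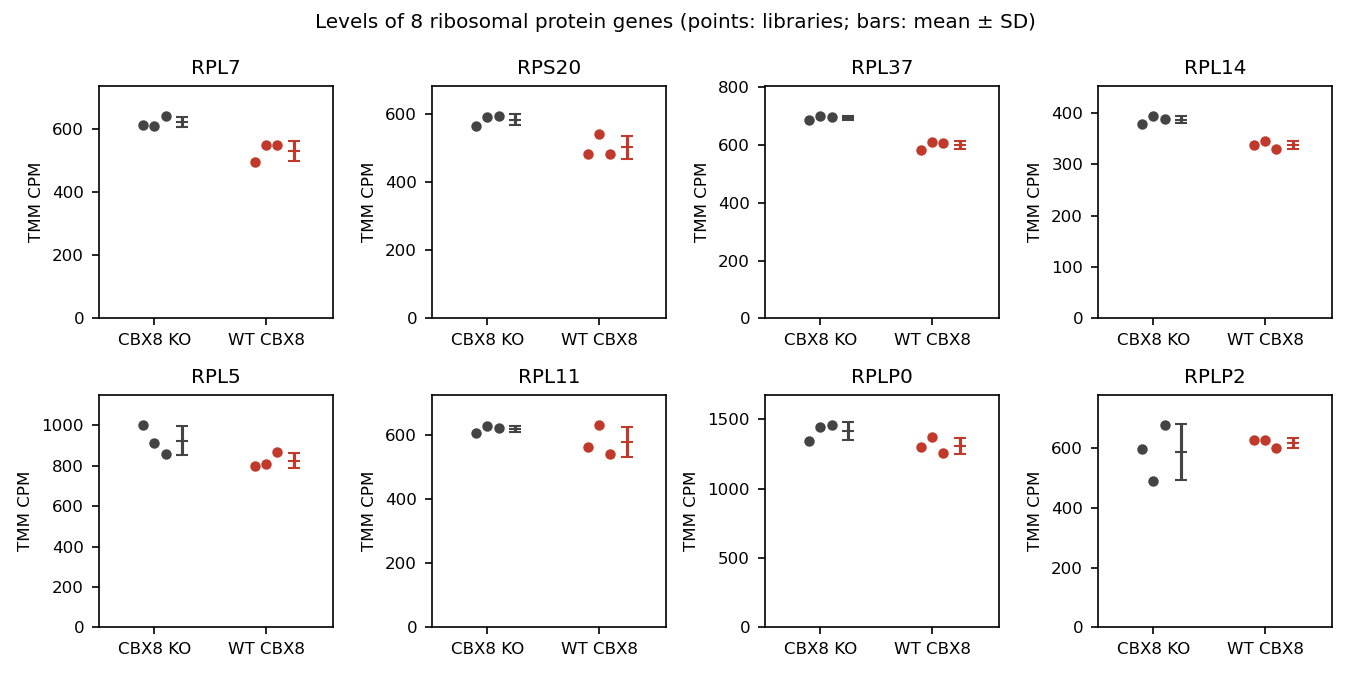
TMM-scaled CPM (y axis, from 0) of 8 ribosomal protein genes in each library (points), with the mean and SD of 3 libraries beside them. RPL7, RPS20, RPL37 and RPL14 show no overlap between CBX8 KO and re-expression, while RPL5, RPL11, RPLP0 and RPLP2 do.

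Several ribosomal proteins have a second gene of similar sequence. Ratios of the counts of 6 such pairs were compared by an exact two-sided permutation test over libraries, whose smallest possible p with 3 against 3 is 0.1. The ratio of RPL26 to RPL26L1 was 2.88, 3.00 and 3.21 in CBX8 KO and 2.59, 2.54 and 2.70 upon re-expression (exact permutation p = 0.1, Benjamini-Hochberg adjusted p = 0.2). RPL7 to RPL7L1 was 3.03, 3.03 and 2.99 against 2.74, 2.91 and 2.83 (exact permutation p = 0.1, adjusted 0.2). RPS27 to RPS27L moved the other way, from 4.33, 4.40 and 4.49 to 4.63, 4.57 and 4.66 (exact permutation p = 0.1, adjusted 0.2). In these 3 pairs the groups did not overlap, and in RPL36A/RPL36AL, RPL22/RPL22L1 and RPL39/RPL39L they did. RPS27L, a p53 target, was itself called lower, at 150.1, 157.1 and 150.9 CPM against 131.9, 139.5 and 129.9 (-0.19 ± 0.05, edgeR adjusted p = 0.012).

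The nearest members above the limit of 10 CPM were RPL41, at a mean of 48.7 CPM, and RPL36A, at 51.9 CPM. Below it were RPL39L, at 4.09 CPM, RPS9 at 1.10, RPL3L at 0.302, and RPL10L and RPS18, which were listed at 0 in every library. RPS18 and RPS9 encode standard small-subunit proteins. Their canonical transcripts matched 4 and 9 alternate contigs of hg38, respectively, along at least 95% of their bases. RPL9 and RPL12 matched 1 alternate contig each and were counted at 232.0 and 538.9 CPM. The part of such copies in the low counts was not tested, and no change is given for these genes. Of the 77 members, 25 had a near-identical copy somewhere else in hg38, 10 of them among the 22 called lower, and reads may have been split between copies. Exons of 19 members overlap another annotated gene, and 28 hold at least 1 snoRNA gene. Among the members with the lowest counts, RPS10 overlaps RPS10-NUDT3, RPL17 overlaps RPL17-C18orf32 and RPL36A overlaps RPL36A-HNRNPH2. The part of these overlaps in the counts was not tested.

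By position, all 4 members on human chromosome 8 (RPL7, RPL8, RPL30 and RPS20) were called lower, with a median of -0.19. Among the other 420 tested genes of chromosome 8, 16.7% were called lower, and their median was -0.04. Outside chromosome 8, 18 of 73 members were called lower with a median of -0.12. Chromosome 19, with 11 members, had 3 called lower and a median over members of -0.14. With its members included, chromosome 8 had the highest share of tested genes called lower of any chromosome (17.5%). Its members RPL7 and RPS20 were among the genes called lower in each of 16 refits, library size scaling included. The part of chromosome 8 in these calls was not tested further. Across the 77 members the log2 fold change had a Spearman's rho of -0.08 with transcript length, 0.11 with GC percent and 0.13 with mean level, as a description over genes that share libraries.

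Other genes of protein synthesis were taken from lists. Of 17 translation factors and binding proteins with TOP starts, 7 were called lower and 0 higher, with a median of -0.14. PABPC1, the cytoplasmic poly(A)-binding protein, fell from 1601, 1529 and 1591 CPM to 1298, 1318 and 1302 (-0.27 ± 0.05, edgeR adjusted p = 2.9e-04). RACK1, a scaffold on the small subunit, fell from 1759, 1808 and 1953 CPM to 1664, 1662 and 1610 (-0.16 ± 0.05, edgeR adjusted p = 0.036). Both genes showed no overlap between groups.
Among 30 initiation factors 6 were called lower and 0 higher (median -0.09), with EIF1AX, which helps to select the start codon, at -0.28 ± 0.05 and the EIF3 subunit EIF3M at -0.22 ± 0.05. Of 107 tested ribosome assembly factors, 34 were called lower (31.8%) and 0 higher, with a median of -0.13. RSL24D1, needed for assembly of the large subunit, fell from 120.7, 110.5 and 114.9 CPM to 87.7, 90.7 and 91.8 (-0.36 ± 0.05, edgeR adjusted p = 4.1e-05). RRP12, which takes part in subunit maturation and export, had a log2 fold change of -0.32 ± 0.06.
Of 13 RNA polymerase I genes 0 were called in either direction by edgeR (median -0.05). Among 20 regulators of ribosomal protein mRNAs, 2 were called, both lower. MYC was at 113.7, 113.7 and 108.8 CPM in CBX8 KO and 74.2, 76.1 and 78.0 upon re-expression (-0.56 ± 0.05, edgeR adjusted p = 3.5e-08), a larger log2 decrease than that of any ribosomal protein gene. EIF4EBP1, the mTOR target that holds back cap-dependent initiation, was at -0.23 ± 0.06 (edgeR adjusted p = 0.016). Of 76 mitochondrial ribosomal protein genes, which serve a separate ribosome, 5 were called lower and 0 higher, with a median of -0.06, and 6.58% lower is close to the 6.63% over all genes tested.

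**Figure D5:**
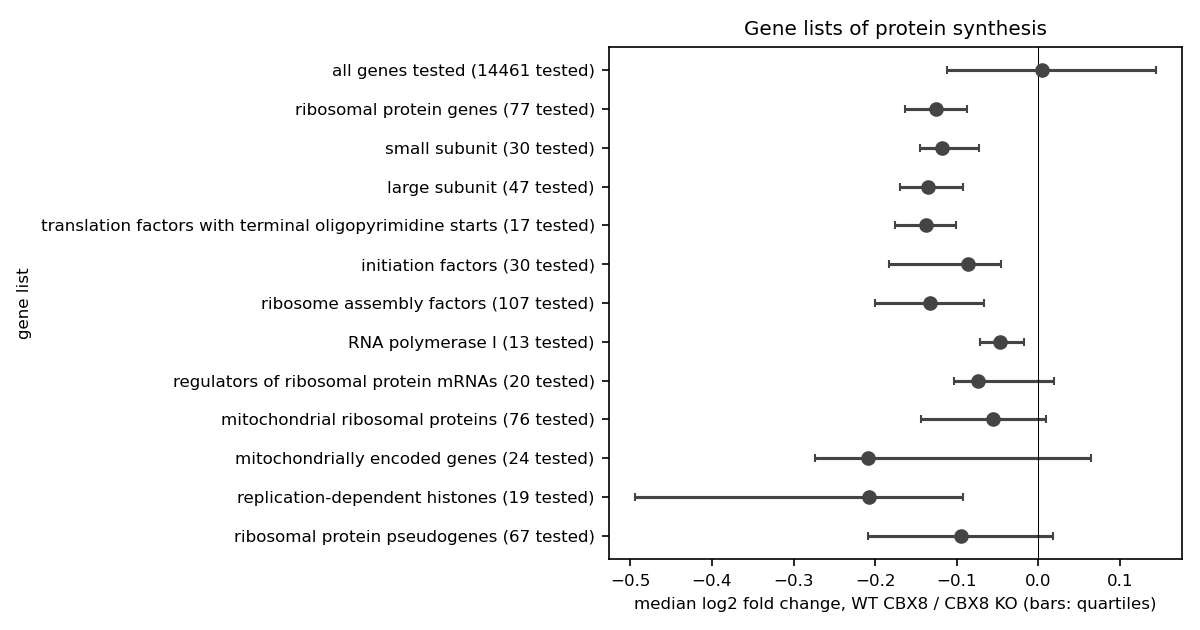
Median log2 fold change (x axis, WT CBX8 re-expression over CBX8 KO) of each gene list (y axis, number of genes tested in brackets), with bars from the first to the third quartile. The cytosolic ribosomal protein genes have the median -0.13 and a narrow bar, and the genes of all kinds have a median of 0.00 and a wider one. The pseudogene list also includes the members RPLP0, RPLP1 and RPLP2.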

How the data were processed

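RNA-seq counts were deposited as 1 matrix of whole-number counts per gene symbol for the 6 libraries. The authors used Trimmomatic to trim the reads and HISAT2 to align the pairs to hg38; the counting program and its strand setting are not given in the sources used here. Here, genes passing filterByExpr were tested with edgeR 4.0.16 in R 4.3.3 (TMM factors, quasi-likelihood F test, Benjamini-Hochberg adjustment), with DESeq2 1.42.0 and limma 3.58.1 as alternatives. Levels are TMM-scaled CPM. Annotation came from GENCODE on GRCh38, and start sequences from RefSeq. Replicates of a group differed by more than sampling noise. Libraries with the same replicate number showed no shared deviation. Whether they were handled together is not given in the sources used here.

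Members and lists were chosen with earlier results of these data known. Named genes were the 6 lowest and 6 highest called members, 16 set members with known roles, paralog pairs, the genes nearest the 10 CPM limit, and CBX8; other genes with values were chosen after their values were seen. The markers and lists are descriptions, and no set test was run. Precision is limited by 3 libraries per group. Some genes are not reported here.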

Additional observations from a re-analysis of the deposited data

How the results depend on the processing

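The count of 0 genes higher held in each alternative run, and the family's median stayed negative in each. The 22 lower calls became 5 under library size scaling (median -0.0703), 13 with a replicate block, 6 at a false discovery rate of 0.01 and 0 with a fold change of at least 1.2. Leaving out 1 library gave 11 to 23 lower calls and medians from -0.145 to -0.0994. RLE scaling gave 23, upper quartile 17, DESeq2 27, limma voom 29, a GC and length correction 21 and no filter 30. The GC and length correction moved the family's median to -0.0985. The family's median minus that of all genes tested was then -0.0911, against -0.130 in the main fit. Members were short, with a median transcript length of 887 bases against 3225.5 over tested genes with an annotated length. The share of all genes called lower also moved, from 6.63% to 4.09% with library size, 5.30% with the replicate block, 3.93% at the stricter rate, 5.14% with DESeq2, 6.57% with limma voom, 10.0% with the GC and length correction and 3.87% with no filter. It was 3.76% with a fold change of at least 1.2, 6.85% with RLE scaling and 5.92% with upper quartile scaling. With 1 library left out it ran from 4.33% to 5.77%. Added after seeing the data, a fit without mitochondrially encoded genes gave 27 (6.87% of all genes tested), and leaving the 4 members of chromosome 8 out of the count gave 18. The 13 calls under the replicate block were all among the 22. Deviations of libraries with the same number correlated at -0.14, -0.16 and -0.08 over 10393 genes, so no shared effect of the replicate number was seen. These values cannot show whether libraries of the same number were handled together.

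The log2 fold change changed sign for members and paralogs near 0. With 1 library left out it ran from -0.164 to 0.0240 for RPS19, -0.138 to 0.0253 for RPSA, -0.0457 to 0.184 for RPLP2, -0.0872 to 0.0193 for RPS27A, -0.148 to 0.0468 for FAU, -0.0198 to 0.0537 for RPL36AL, -0.123 to 0.0245 for RPL22L1 and -0.0804 to 0.0434 for RPL26L1. Under library size scaling RPLP1 became 0.0061, RPS27A 0.0241, RPL22L1 0.0014 and RPL26L1 0.0536. Under the GC and length correction RPS27A became 0.0379, RPL22L1 0.00074, RPL26L1 0.0574 and RPL39 0.0056. RPL26L1 was 0.0102 under upper quartile scaling and 0.00059 with limma voom. The cause was not tested.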

Other observations

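Processed pseudogenes of ribosomal proteins share sequence with the parent genes. The symbol pattern used for pseudogenes matched 1148 symbols, of which 353 had a count. It also matched RPLP0, RPLP1 and RPLP2, which are members of the family and not pseudogenes. Together the matched symbols took 0.379% to 0.411% of counts per library. In CBX8 KO replicate 1, RPLP0, RPLP1 and RPLP2 held 10627, 6477 and 4729 of the 31253 matched counts. The share of pseudogenes alone was thus smaller and is not given. Of 67 matched symbols tested, RPLP0, RPLP1 and RPLP2 included, 1 was called lower, RPL7P1, and 0 were called higher by edgeR. RPL7P1 had 377, 440 and 375 counts in CBX8 KO and 382, 335 and 321 upon re-expression. Its reads cannot be told apart from those of RPL7 where the sequences are the same.

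Replication-dependent histone genes, whose mRNAs mostly lack a polyA tail, had 3 of 19 tested genes called lower and 0 higher, with a median log2 fold change of -0.21. HIST1H2AC was at 18.7, 16.6 and 18.7 TMM-scaled CPM in CBX8 KO and 12.2, 12.5 and 11.2 upon re-expression (-0.59 ± 0.11 SE, edgeR adjusted p = 6.5e-04).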
